A study of Arabidopsis thaliana with 14 samples.

Results

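Inflorescences of wild-type Arabidopsis thaliana were set against roots of the same wild type, the accession Col-7, in 7 arrays out of the 14 of the series. The members were taken by their titles, 4 Col-7 inflorescence arrays and 3 Col-7 root arrays. The inflorescences came from soil-grown plants 33 days old, with opened and opening flowers removed, so the tissue held unopened buds and the axis that bears them. The roots were excised from plants 21 days old that had been moved from agar plates without glucose to plates with 4% glucose. The series' design text gives 11 days without glucose and 10 days with it, whereas the sample protocol gives 7 days on a first plate, so those times are uncertain. The remaining arrays, 4 of inflorescences and 3 of roots, came from gir, a mutant in glucose-inhibited root growth, and are used only in the last comparison. Tissue is mixed with age, with soil against plate and with glucose in every comparison made here, and these cannot be told apart. Whether replicates were separate plants or pools is not in the labels, and the p-values therefore rest on a spread among samples that could be technical.

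A closed flower bud holds anthers, in which a nutritive layer, the tapetum, feeds the developing pollen and builds its wall, together with green sepals and the carpels and ovules. A root takes up water and nutrients through its hairs, seals its inner tissues with suberin and lignin, and in Arabidopsis stores beta-glucosidases in large bodies of the endoplasmic reticulum, the ER bodies, that serve defence. In whole organs, fewer cells of a type and less RNA per cell cannot be told apart.

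Each array gave a MAS5 intensity, a linear brightness, for 22810 probe sets. All arrays had been scaled to the same trimmed mean of 500, so every difference below is relative to the bulk of the transcripts on the array. Arrays of the same tissue correlated at 0.988 to 0.993 in inflorescences and at 0.989 to 0.990 in roots (Pearson's r over probe sets, log2 scale). An inflorescence and a root array correlated at 0.720 to 0.726. The spike-in control for dap, added to the RNA before labelling in the Affymetrix procedure, read 271 to 353 on inflorescence arrays and 1.24 to 6.49 on root arrays, and the thr control read 133 to 169 and 4.46 to 16.5. The further control bioC read 841 to 982 on inflorescence arrays and 273 to 305 on root arrays, and bioB 239 to 273 and 171 to 214. The control cre overlapped between the tissues, at 12060 to 13277 and 11567 to 13709. All of these control levels but that of cre thus moved with the tissue, and their part in the results was not tested. The actin transcript's 3′ to 5′ signal ratio, a measure of RNA integrity and labelling, was 2.22 to 2.30 in inflorescences and 1.40 to 1.56 in roots. Markers of the tapetum and pollen wall followed the tissue labels, since on each root array 9 of their 11 measured genes lay below the array's 40th percentile, against 0 to 2 on inflorescence arrays. The floral identity list did so less fully, since 14 of its 22 measured genes lay below the 40th percentile on each inflorescence array and 16 to 18 on root arrays.

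Most of the measured transcripts differed between the tissues. Of 15438 probe sets tested, 12014 (77.8%) passed an adjusted p of 0.05, 5889 of them (38.1%) higher in inflorescences and 6125 (39.7%) lower. The test was limma's moderated test on log2(intensity + 26), for probe sets at or above their array's 40th percentile on at least 3 of the 7 arrays. Many of the calls were small, with 6396 probe sets (41.4% of those tested) past the threshold at under 2-fold. At least 4-fold differences numbered 1654 higher (10.7% of those tested) and 1233 lower (7.99%) in inflorescences, and 441 probe sets were at least 16-fold higher and 350 at least 16-fold lower. The median log2 difference over all tested probe sets was -0.019. Centring each array on its own median instead would move it to -0.17, so log2 differences of that order depend on the scaling. With so many calls, a gene's passing the test says little by itself, and the sizes that follow carry the description. The number of a list's members called higher or lower is likewise to be read beside the shares of 38.1% and 39.7%. A gene that reaches the percentile in a single tissue enters the test through that tissue. Its direction is then nearly fixed in advance.

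**Figure D1:**
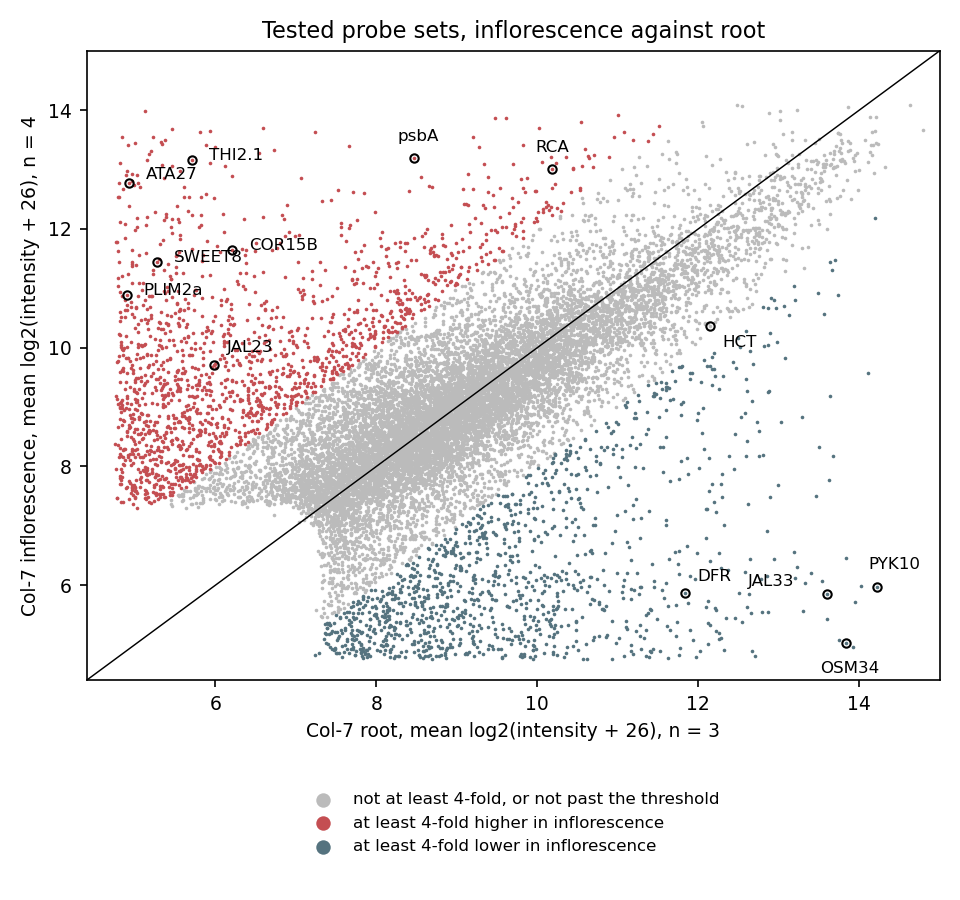
Mean log2(intensity + 26) of each tested probe set in Col-7 inflorescences (vertical axis, n = 4) against Col-7 roots (horizontal axis, n = 3), with probe sets at least 4-fold higher (1654, red) or lower (1233, blue) in inflorescences coloured and named genes circled. The line marks equal values, and both coloured clouds reach the edges at which one tissue gave almost no signal.

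Among the 8218 genes with a tested probe set that names them alone, 846 were at least 4-fold higher in inflorescences, and for 624 of these every root array lay below its 40th percentile, which was 118 to 120 in roots and 132 to 140 in inflorescences. Another 606 genes were at least 4-fold lower in inflorescences, 479 of them below that percentile on every inflorescence array. For such genes the size is only a bound. It is given below as "at least N-fold", the brighter tissue's mean over the 40th percentile of the dimmer tissue's arrays, and log2 differences of these genes, on the log2(intensity + 26) scale, have no order among themselves.

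Of the 15 genes named for the largest fitted fall, 5 carry a gene name. OSM34 (AT4G11650), an osmotin-like protein of the thaumatin family, read 2.64, 8.26, 5.24 and 10.2 in inflorescences, against 14969, 14512 and 14144 in roots. It was at least 107-fold lower in inflorescences (adjusted p = 6.4e-12), and the tissues stood apart without overlap. PYK10 and the jacalin lectins JAL33, JAL34 and JAL22, described below, belong to the same set. The loci AT5G26260, AT4G15390, AT2G43590, AT3G20370, AT4G16260, AT2G21045, AT3G58550, AT5G17820, AT2G18370 and AT5G23830 complete it, with root intensities of 4160.2 to 14586 on average. Of these 10 loci AT2G43590 had the largest SD among inflorescences, with 29.0, 23.9, 117 and 129, of which the last 2 neared the 40th percentile.

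Of the 15 genes named for the largest fitted rise, only ATA27, described below, carries a gene name. AT3G07820 read 10343, 10719.6, 11382 and 11117 in inflorescences, against 2.71, 2.11 and 7.69 in roots, and AT5G38760 read 8322, 8847, 8806 and 9182 in inflorescences, against 0.92, 1.37 and 3.83 in roots. Both were therefore bright on all 4 inflorescence arrays and at the floor on all 3 root arrays, at least 91.2-fold higher and at least 73.6-fold higher. The remaining loci were AT1G66850, AT3G28790, AT3G28980, AT3G28830, AT5G61720, AT5G33370, AT5G07430, AT3G28750, AT2G47050, AT5G19580, AT3G01240 and AT5G45880. Their mean intensities were 5944 to 12643 in inflorescences and 1.60 to 30.7 in roots.

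Where all 7 arrays were at or above their 40th percentile, sizes can be ordered, and the genes of that order were chosen after their values were seen. The largest rise among them was that of AT3G20820, with 7542, 6389, 5479 and 6568 in inflorescences, against 173, 144 and 156 in roots, a log2 difference of 5.14 ± 0.11 (SE, adjusted p = 2.5e-10). AT5G62360 (5.06), the plastid gene psbA (4.74) and AT2G45180 (4.54) followed. The largest fall was that of AT3G53980, with 236, 188, 204 and 147 in inflorescences, against 12849.8, 12507 and 12596 in roots, a log2 difference of -5.87 ± 0.13 (adjusted p = 2.2e-10). AT3G21770 (-4.81), AT3G18280 (-4.62) and AT3G54040 (-4.55) followed. MT1C (AT1G07610), a metallothionein, read 842, 613, 749 and 758 in inflorescences, against 18972, 17193 and 16908 in roots. MT1C thus kept a clear signal in inflorescences while differing by -4.54 (log2).

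Of the genes tied to ER bodies and their beta-glucosidases, 5 were bright in roots and below the 40th percentile on every inflorescence array. Of 10 tested genes of this list, 7 were lower in inflorescences, 2 were higher and 1 did not pass, with a median log2 difference of -4.29 beside -0.019 over all probe sets tested. That median falls in a gap between those 5 genes and the rest of the list, so no gene lies near it. PYK10 (AT3G09260), the beta-glucosidase that fills the ER bodies of roots, read 29.1, 35.9, 39.7 and 41.4 in inflorescences, against 19832, 18407 and 19024 in roots. Every inflorescence array was below its 40th percentile, and PYK10 was at least 139.8-fold lower there (adjusted p = 6.4e-12). NAI2 (AT3G15950), which encodes a protein needed for ER bodies to form, read 69.3, 67.4, 62.3 and 72.6 in inflorescences, against 8824, 9339 and 9731 in roots, at least 68.1-fold lower. The jacalin-related lectins JAL33 (AT3G16450), JAL34 (AT3G16460) and JAL22 (AT2G39310), sugar-binding proteins of the PYK10 complex or its relatives, were at least 90.9-fold lower, at least 87.3-fold lower and at least 45.6-fold lower.

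NAI1 (AT2G22770), the bHLH factor that drives ER-body genes, was measurable in both tissues, with 148, 232, 219.9 and 251 in inflorescences, against 636, 520.1 and 679 in roots. Its log2 difference of -1.43 ± 0.16 (adjusted p = 2.4e-05) was far smaller than those of PYK10 and NAI2, though the tissues did not overlap. JAL23 (AT2G39330), the lectin gene next in number to JAL22, ran the other way, with 918, 865, 731 and 749.7 in inflorescences, against 33.9, 53.3 and 27.6 in roots, at least 6.81-fold higher in inflorescences (adjusted p = 7.5e-09). The beta-glucosidases BGLU46 (log2 difference -1.95, with 1 inflorescence array below the 40th percentile) and BGLU45 (at least 3.00-fold higher), which act on monolignol glucosides, differed in opposite directions, and BGLU42 did not pass (log2 difference -0.20, adjusted p = 0.12).

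The tested genes listed for lignin and for class III peroxidases, secreted enzymes that couple monolignols and loosen or stiffen walls, were lower in inflorescences. The peroxidase list was matched by gene symbol and need not hold the whole family. All 6 tested peroxidases of that list were lower (5 at least 4-fold, median log2 difference -4.15). So were all 5 tested genes of the xylem and lignin list, 3 of which are the same peroxidases. On each inflorescence array 5 or 6 of the 7 measured peroxidases lay below the 40th percentile, against 1 on each root array. Most tested peroxidases thus passed the filter through the root arrays, and their common direction was nearly fixed in advance. Peroxidase 25 (AT2G41480) read 34.4, 36.4, 55.7 and 69.1 in inflorescences, against 1993, 1969 and 2035 in roots. Prx37 (AT4G08770), peroxidase 72 (AT5G66390) and PRX52 (AT5G05340) were at least 12.3-fold lower, at least 8.12-fold lower and at least 6.03-fold lower. PRXR1 (-2.02) and peroxidase 71 (AT5G64120, -1.46, with 2 of 4 inflorescence arrays below the 40th percentile) differed less. HCT (AT5G48930), the hydroxycinnamoyl transferase that opens the branch to lignin, kept signal in both tissues, with 1369, 1225, 1247 and 1354 in inflorescences, against 4508, 4584 and 4397 in roots, a log2 difference of -1.77 ± 0.077 (adjusted p = 2e-08). GUT2 (AT1G27440), a xylan synthase subunit, differed by -0.81 ± 0.092.

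The UGT72E glucosyltransferases, which put glucose on monolignols, were lower too, all 3 by over 4-fold as fitted. This family was chosen after its values were seen. UGT72E2 (AT5G66690) read 157, 158, 147 and 101 in inflorescences, against 5834, 6442 and 6510.1 in roots, and UGT72E1 and UGT72E3 were at least 7.52-fold lower and at least 2.57-fold lower. FACT (AT5G63560), which makes the caffeate esters of root waxes and was the only measured gene of the endodermis and suberin list, read 24.7, 38.6, 29.5 and 24.0 in inflorescences, against 2195, 1978 and 2165 in roots, at least 15.5-fold lower in inflorescences.

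**Figure D2:**
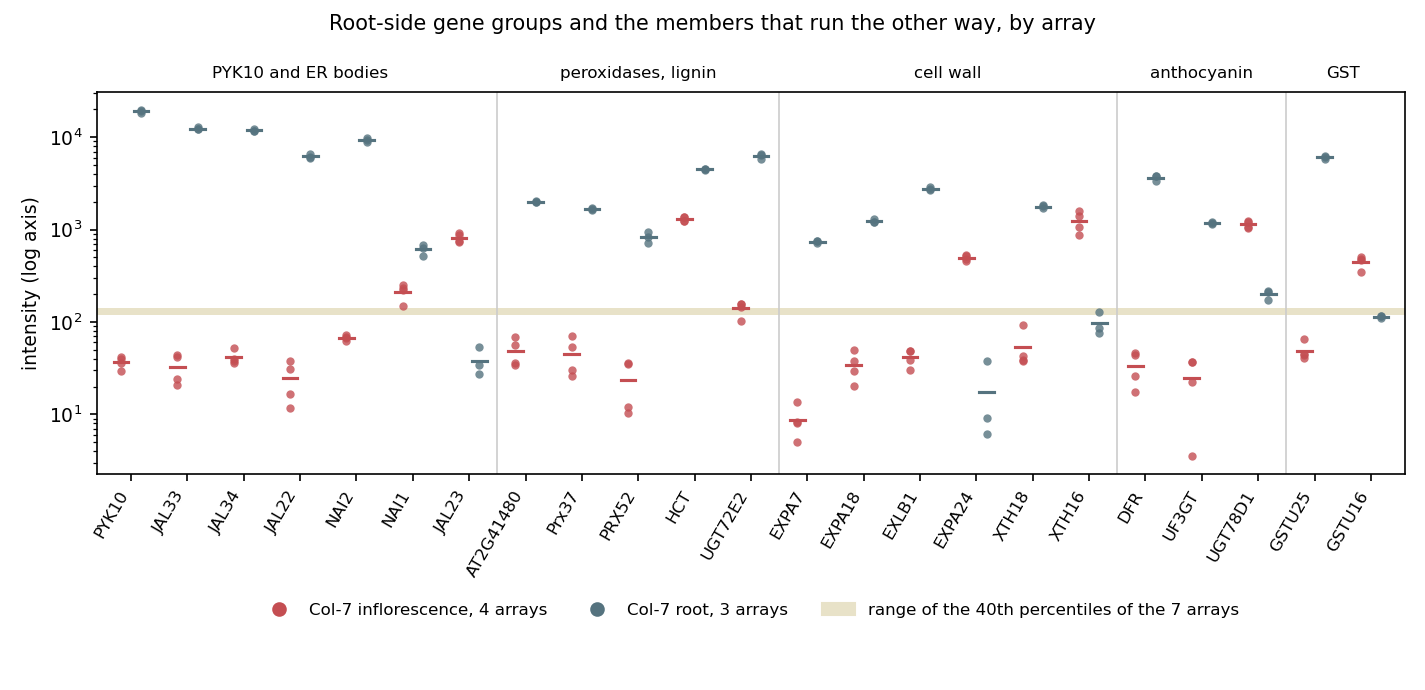
Intensity (log axis) of genes of root-side groups on each of 4 Col-7 inflorescence arrays (red, left) and 3 Col-7 root arrays (blue, right), with bars at the means and a band over the 40th percentiles of the 7 arrays. Most genes are bright in roots and under the band in inflorescences, while JAL23, EXPA24, XTH16, UGT78D1 and GSTU16 run the other way.

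Expansins, proteins that loosen cell walls, fell on the whole, but a few members were higher in inflorescences. Of 16 tested expansins and expansin-like genes, 11 were lower, 3 were higher and 2 did not pass. Of 3 tested genes of the root hair list 2 were lower and 1 higher. The root-hair expansins EXPA7 (AT1G12560) and EXPA18 (AT1G62980) were at least 5.40-fold lower and at least 9.16-fold lower in inflorescences, and EXLB1 (AT4G17030) was at least 20.4-fold lower (adjusted p = 1.5e-10). Against these, EXPA24 (AT5G39310) read 475, 513, 529 and 459 in inflorescences, against 37.6, 6.07 and 9.10 in roots, EXPB5 was at least 4.73-fold higher, and EXPA8 differed by 2.43 on the log2 scale. EXLA1 (0.28) and EXLA2 (0.35) did not pass.

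Other wall enzymes also had members on both sides. Of 6 tested XTH enzymes, which cut and rejoin xyloglucan, XTH18 and XTH20 were at least 13.02-fold lower and at least 3.23-fold lower in inflorescences, XTH19, below the 40th percentile on 2 of the 4 inflorescence arrays, differed by -3.84 (log2), and XTH16 (AT3G23730) was higher, with 1058, 1401, 1590.1 and 879.8 in inflorescences, against 128, 85.6 and 75.8 in roots. Among 10 tested GH9 endoglucanases, a family chosen after its values were seen, 5 were higher and 4 lower, among them GH9C1 (at least 7.60-fold lower), GH9B8 (log2 difference -2.70, with 1 inflorescence array below the 40th percentile), GH9B11 (at least 5.47-fold higher) and GH9A4 (at least 8.45-fold higher). In the cellulose synthase superfamily CSLA01 (AT4G16590), a mannan synthase homologue, was at least 10.4-fold higher in inflorescences, whereas CSLD2 (AT5G16910), known from root hairs, read 388, 369, 527 and 397 in inflorescences, against 1559, 1680.1 and 1683 in roots.

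Genes for conjugation of small molecules were mostly lower in inflorescences. Of 33 tested UDP-glycosyltransferases 23 were lower (14 at least 4-fold) and 9 higher, with a median log2 difference of -1.31. UGT73B4 (AT2G15490) read 2.41, 1.47, 1.99 and 3.57 in inflorescences, against 1219, 1161 and 1176 in roots, while AT5G54010, annotated as a UDP-glycosyltransferase, was at least 1.87-fold higher. Of 12 tested glutathione transferases, which detoxify reactive compounds, 9 were lower. GSTU25 (AT1G17180) read 45.3, 65.4, 44.3 and 41.2 in inflorescences, against 6204, 5883 and 6164 in roots, at least 44.6-fold lower (adjusted p = 6.4e-11), and GSTU22 was at least 16.6-fold lower. Of the tau-class members GSTU16 was at least 3.74-fold higher and GSTU18 was higher by a log2 difference of 1.57.

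In the flavonoid pathway the anthocyanin branch was lower in inflorescences and the flavonol rhamnosyltransferase was higher. DFR (AT5G42800), dihydroflavonol reductase, the entry to anthocyanins, read 17.5, 44.3, 46.0 and 25.7 in inflorescences, against 3784, 3765 and 3356 in roots, at least 26.6-fold lower in inflorescences (adjusted p = 1.2e-09). The anthocyanin glycosyltransferase UF3GT (AT5G54060) was at least 8.62-fold lower, and the malonyltransferase AT5MAT (AT3G29590) was at least 1.44-fold lower. UGT78D2, which adds glucose to flavonols and anthocyanidins, differed by -1.18. UGT78D1 (AT1G30530), which adds rhamnose to flavonols, read 1245, 1050.3, 1203 and 1059 in inflorescences, against 215, 213 and 175 in roots, a log2 difference of 2.36 ± 0.10. CHIL, a chalcone isomerase-like protein, did not pass (-0.17, adjusted p = 0.52). BCAT4 (AT3G19710), the transaminase that starts the chain elongation of aliphatic glucosinolates, was at least 29.0-fold lower, while UGT74B1, the glucosyltransferase shared by glucosinolates, differed by -1.38.

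Regulators and fermentation genes of roots were few among the tested genes. Of 6 genes of the root apex and lateral root list, AGL21 (AT4G37940), a MADS-box factor, and LBD16 (AT2G42430), a factor of lateral root initiation, were at least 2.79-fold lower and at least 2.48-fold lower, and AGL42 was lower by a log2 difference of -0.93. LHW, a bHLH factor of vascular tissue, was higher (0.30, adjusted p = 0.025), a call lost under median centring (adjusted p = 0.21) and when root replicate 1 or 2 or inflorescence replicate 2 or 4 was left out (0.051 to 0.10). UPB1 (0.42, adjusted p = 0.059) and AGL26 (-0.071, adjusted p = 0.53) did not pass. All 3 tested genes of the hypoxia and fermentation list were lower, among them PDC2 (AT5G54960), a pyruvate decarboxylase, with 1189, 965, 972 and 884 in inflorescences, against 2492, 2817 and 2351 in roots, and WRKY6 (AT1G62300), a transcription factor of defence and phosphate responses, which was at least 5.99-fold lower.

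Genes of the tapetum and pollen wall were bright in inflorescences and mostly at the floor in roots. The list also holds genes known from pollen itself, AtVEX1 and AT59. All 9 tested genes of the list were higher in inflorescences, 8 of them at least 4-fold, with a median log2 difference of 5.14. On each root array 9 of the 11 measured genes lay below the 40th percentile. Most of the tested genes thus passed the filter through the inflorescence arrays, and their common direction was nearly fixed in advance. The other 2 measured genes were not tested. ATA27 (AT1G75940), also called BGLU20, an anther beta-glucosidase, read 7669, 8091, 6912 and 5389 in inflorescences, against 9.38, 2.17 and 2.19 in roots, at least 58.1-fold higher (adjusted p = 9.8e-11). SWEET8 (AT5G40260), a sugar exporter on which the pollen wall depends, read 2453, 2860.2, 2804 and 2872 in inflorescences, against 18.3, 17.1 and 4.34 in roots. SHT (AT2G19070), which makes the spermidine conjugates of the pollen coat, read 1621, 1928, 1284 and 858 in inflorescences, against 2.54, 10.3 and 32.6 in roots, and this gene varied more than 2-fold among the inflorescences. The bHLH factor AMS (AT2G16910) was at least 4.17-fold higher, and the receptor kinase EMS1 (AT5G07280), which specifies the tapetum, was at least 6.58-fold higher. AtVEX1, a SWEET protein of the vegetative pollen cell, and the pectate lyase AT59 of pollen were at least 22.4-fold higher and at least 10.6-fold higher, and SWEET13 and SWEET14 differed by 1.67 and 2.14.

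Genes of late pollen and the pollen tube were measurable in these unopened buds. Of 26 measured genes 19 were tested, 15 were higher, 2 lower and 2 did not pass. On each root array 17 of the 26 lay below the 40th percentile, so many of the tested genes passed the filter through the inflorescence arrays. PLIM2a (AT2G45800), an actin-bundling LIM protein, read 1728, 1876, 1855 and 2007 in inflorescences, against 2.44, 5.35 and 4.08 in roots, at least 15.6-fold higher (adjusted p = 1.7e-11). ACT12 (AT3G46520), a pollen actin, read 676, 657, 723 and 722 in inflorescences, against 4.38, 8.33 and 5.91 in roots, and CHX19 (AT3G17630), a cation exchanger, read 1242, 1319, 1349.8 and 1319 in inflorescences, against 36.6, 46.5 and 41.5 in roots. The MADS-box factor AGL104, the pollen-tube receptor kinase ANX2 and sks18 were at least 2.98-fold higher, at least 3.19-fold higher and at least 4.22-fold higher. MGH3 (AT1G19890), the histone H3 of male gametes, was at least 3.44-fold higher. The expansin EXPA4 (AT2G39700) was the member that ran furthest the other way, with 972, 1028, 1009 and 1126 in inflorescences, against 7479.9, 7025 and 7843 in roots, followed by CSLC6 (-0.88). TUB9 (0.062) and WLIM1 (0.10), whose transcripts were bright in both tissues, did not pass.

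Regulators of floral organs were fewer among the tested genes, and most of those tested were higher in inflorescences. Of 22 measured genes of the floral identity list, 9 were tested, 7 of them higher and 2 lower in inflorescences. These counts depended on the filter. With no filter 11 of all 22 were higher and 6 lower, and with a filter at the 60th percentile 4 of 5 were higher and 1 lower. BPEp (AT1G59640), a bHLH factor of petal growth, read 1324, 1189, 1219 and 1546 in inflorescences, against 58.8, 67.7 and 82.4 in roots, at least 11.0-fold higher. ALC (AT5G67110), a bHLH factor of fruit opening, read 641, 581, 647 and 637 in inflorescences, against 115, 99.2 and 130.1 in roots, and SPT, a related factor of carpel growth, differed by 1.28. INO (AT1G23420), the YABBY factor of the outer integument of ovules, read 160.3, 164, 182 and 191 in inflorescences, against 15.5, 3.37 and 43.2 in roots, and NGA1 and NGA2, B3 factors of the style, were at least 1.73-fold higher and at least 1.52-fold higher. In the overlapping list of ovule, carpel and transmitting tract, which also holds ALC, INO and SPT, 4 of 6 tested genes were higher and 2 lower. The lower members were FER, a receptor kinase of growth and pollen tube reception, with 1689.6, 1663, 1748 and 1538 in inflorescences, against 2610.0, 2916 and 2877 in roots, a log2 difference of -0.75 ± 0.082, and YUC6, a flavin monooxygenase of auxin synthesis, with 81.3, 104, 97.2 and 95.2 in inflorescences, against 134, 133 and 153 in roots. The trihelix factor PTL (adjusted p = 0.014) and the co-repressor SEU (log2 difference -0.30, adjusted p = 0.011) were lower, and both calls were lost without root replicate 2 (adjusted p = 0.056 and 0.052).

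Of 5 tested genes for organ polarity and growth, the YABBY factors YAB3 (AT4G00180) and YAB5 (AT2G26580) were at least 3.01-fold higher and at least 1.37-fold higher in inflorescences. ARL, a regulator of organ size, was higher by 0.50 (adjusted p = 0.017) PHV, a homeodomain factor of the upper organ side, was lower by a log2 difference of -0.37, and AN did not pass (0.018). The call for ARL was lost without root replicate 3 (adjusted p = 0.071), with inflorescence replicates 1 and 2 alone and under median centring. Both tested cuticle genes were higher. WSD1 (AT5G37300), a wax ester synthase, read 1182, 951, 992 and 935 in inflorescences, against 1.74, 1.22 and 4.395 in roots, and SHN3 (AT5G25390), a regulator of cuticle genes, was at least 2.18-fold higher.

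**Figure D3:**
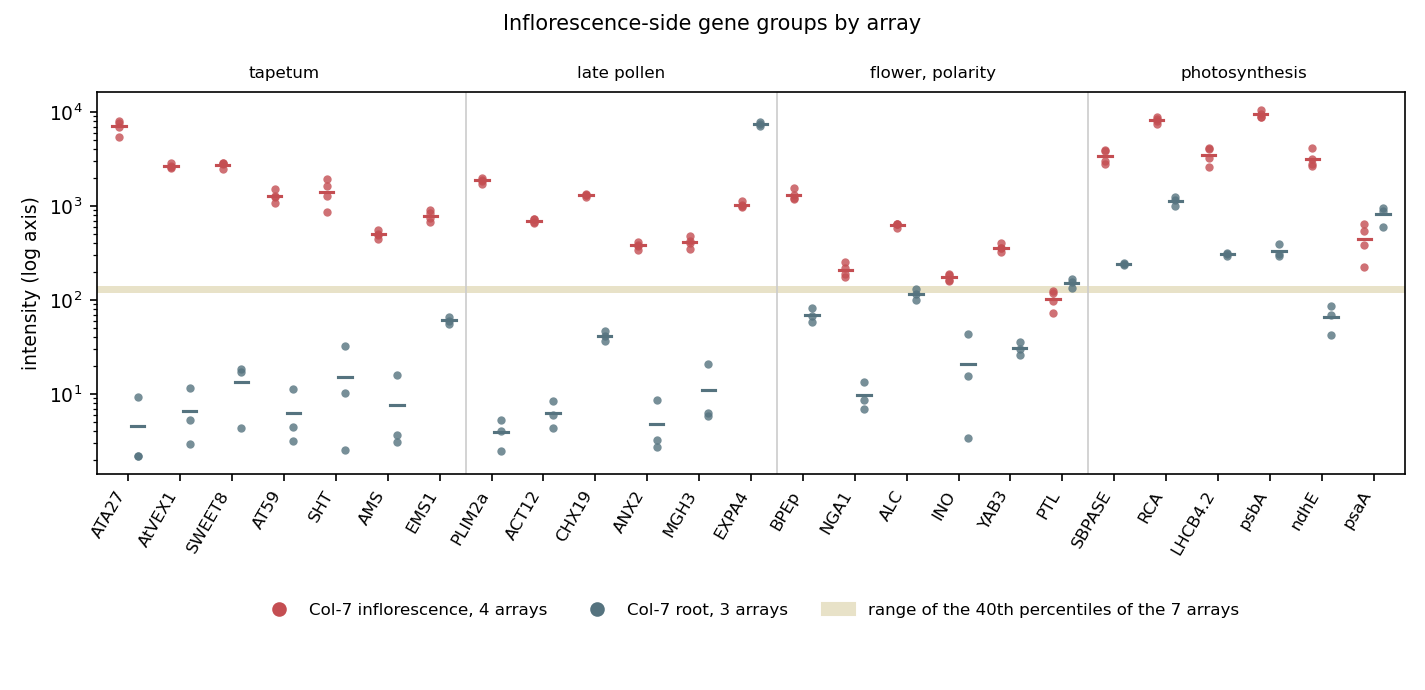
Intensity (log axis) of genes of inflorescence-side groups on each of 4 Col-7 inflorescence arrays (red, left) and 3 Col-7 root arrays (blue, right), with bars at the means and a band over the 40th percentiles of the 7 arrays. Genes of the tapetum and pollen wall and of late pollen stand above the band in inflorescences and under it in roots apart from EXPA4, the photosynthesis genes other than ndhE are above the band in both tissues, and EXPA4, PTL and psaA are lower in inflorescences.

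Photosynthesis genes of the nucleus were higher in inflorescences and yet measurable in roots. Of 12 tested genes for the Calvin cycle, chlorophyll and electron transport, 11 were higher (8 at least 4-fold), with a median log2 difference of 2.603. All 7 tested antenna and photosystem subunits were at least 4-fold higher. SBPASE (AT3G55800), a phosphatase of the Calvin cycle, read 3931, 3823, 3000.3 and 2780.2 in inflorescences, against 239, 245 and 234 in roots, a log2 difference of 3.67 ± 0.13 (adjusted p = 4.3e-09). RCA (AT2G39730), Rubisco activase, read 8834, 8461, 8111 and 7495 in inflorescences, against 1164, 1249 and 999 in roots. PRK (AT1G32060), phosphoribulokinase, HPR, the hydroxypyruvate reductase of photorespiration, and ATPC1, an ATP synthase subunit, differed by 3.38, 3.03 and 2.66. LHCB4.2 (AT3G08940), an antenna protein of photosystem II, read 4075, 4186, 3224 and 2588 in inflorescences, against 293, 311 and 319.7 in roots, and PSAN and PSAE-1 of photosystem I differed by 3.303 and 2.58. CHLI2, a magnesium chelatase subunit, was at least 5.36-fold higher. HEMA2, a glutamyl-tRNA reductase that heads tetrapyrrole synthesis, was the one gene of the list that did not pass (0.27, adjusted p = 0.085).

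Transcripts of the plastid genome, a group added after the values were seen, were nearly all higher in inflorescences as well. Of 69 measured, 64 were tested, 57 were higher (23 at least 4-fold), 1 was lower and 6 did not pass, with a median log2 difference of 1.58. The photosystem II gene psbA, whose protein turns over in the light, read 8792, 9408, 8932 and 10557 in inflorescences, against 293, 389 and 307 in roots, a log2 difference of 4.74 ± 0.11 (adjusted p = 3.7e-10). The NDH-complex gene ndhE read 2689, 2790.4, 3192 and 4089 in inflorescences, against 69.8, 42.5 and 86.5 in roots.

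The plastid genes differed unevenly within a complex. In the NDH complex 8 of 9 tested subunit genes were higher with a median of 2.26, ndhJ among them at at least 12.1-fold higher, against a median of 0.80 over 6 ATP synthase genes, of which atpF (2.36) was the largest and atpA (0.29) did not pass. In photosystem II, psbB (0.16) and psbD (0.13) did not pass beside psbA. Without inflorescence replicate 1 they did, at 0.39 and 0.38 (adjusted p = 0.019 and 0.0080), as did atpA at 0.46 (adjusted p = 0.044). In photosystem I, psaC was higher by 2.77, whereas psaA read 223, 384, 642 and 536 in inflorescences, against 601, 894 and 963 in roots and was lower by a log2 difference of -0.91 ± 0.31 (adjusted p = 0.022). Leaving out root replicate 2 or root replicate 3 gave psaA an adjusted p of 0.071 or 0.083, and inflorescence replicates 3 and 4 alone gave a log2 difference of -0.44 (adjusted p = 0.081). All 14 tested ribosomal protein genes were higher, rpl20 at 3.40, and so were all 3 tested genes of the plastid RNA polymerase, rpoA at 1.57. The cytochrome b6f gene petL differed by 3.53 and rbcL, the large subunit of Rubisco, by 0.60. Inflorescence replicate 1 gave the lowest of the 4 inflorescence values for 57 of the 64 tested plastid genes, and the 3 other arrays for 4, 0 and 3. Replicate 1 also had the lowest 25S ribosomal RNA control signal of the 4 (345). How far the labelling of RNA shaped the plastid signals was not tested.

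Sugar exporters of the SWEET family, a group added after the values were seen, divided by direction. Of 14 tested SWEET genes 11 were higher in inflorescences, 10 of them at least 4-fold, and 3 were lower. SWEET10 (AT5G50790) and SWEET4 (AT3G28007) were at least 19.0-fold higher and at least 10.9-fold higher. SWEET1 (AT1G21460) read 2396, 2259, 2151 and 2476 in inflorescences, against 113, 81.5 and 79.6 in roots, and SWEET9 (AT2G39060), the nectary exporter, read 1266, 774, 461 and 665 in inflorescences, against 3.83, 19.9 and 45.5 in roots and varied more among inflorescences than SWEET1. SWEET7 and SWEET3 were at least 5.26-fold higher and at least 6.12-fold higher. The 3 lower members, SWEET2 (at least 2.32-fold lower), SWEET16 (at least 2.116-fold lower) and SWEET17 (log2 difference -0.67), are those known to act at the vacuole. Of the vacuolar sugar importers, TMT1 (AT1G20840) read 539, 593, 528 and 571 in inflorescences, against 2718, 2686 and 2925 in roots and TMT2 differed by -0.70, while TMT3 was at least 4.75-fold higher. Glucose had been supplied to the roots alone, and its part in these differences cannot be told apart from that of tissue. The cell-wall invertase family gene cwINV6 and ICL, isocitrate lyase of the glyoxylate cycle, were at least 2.36-fold lower and at least 1.79-fold lower in inflorescences, and the amylase gene AMY1 was at least 3.60-fold higher.

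**Figure D4:**
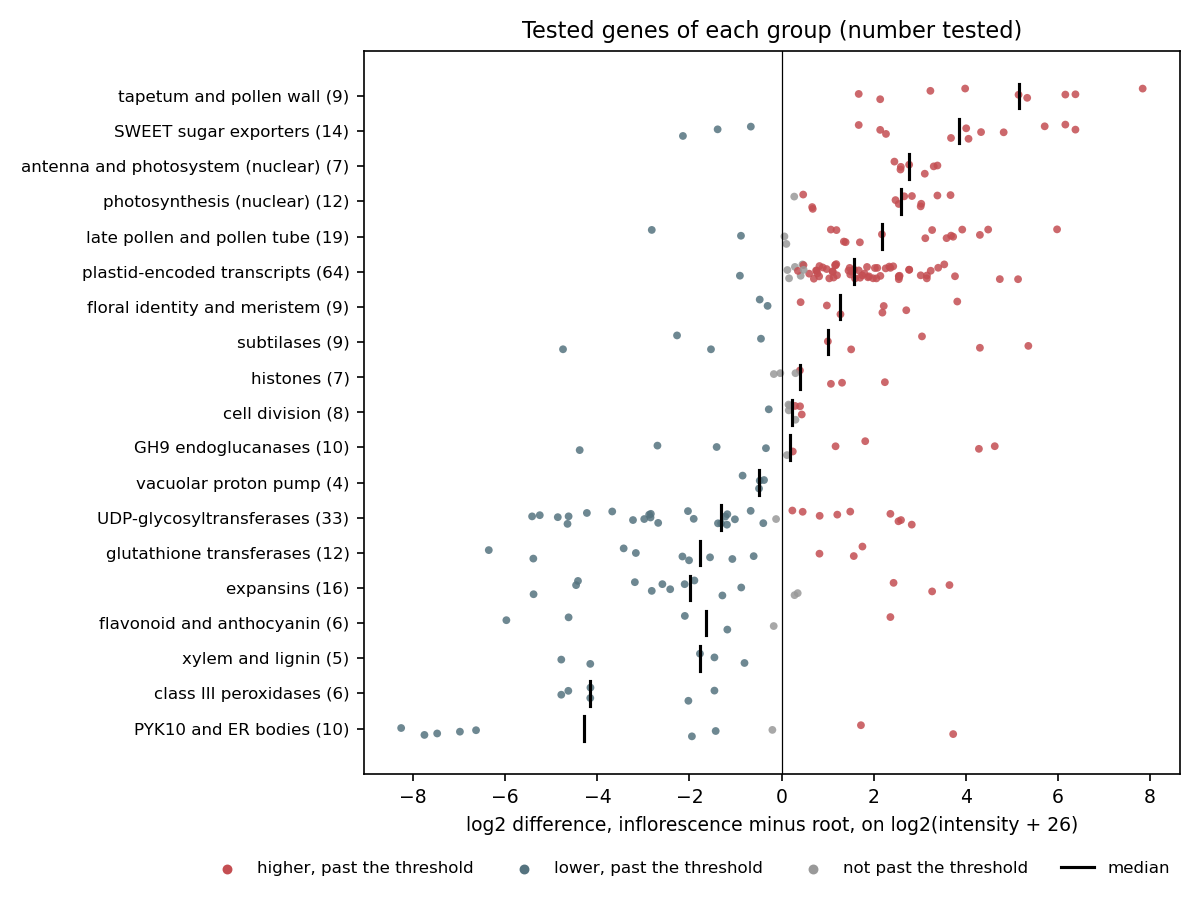
Log2 difference, inflorescence minus root, on log2(intensity + 26) for each tested gene of 19 groups (number tested in brackets), with red for higher and blue for lower past the threshold, grey for not past it and a bar at the median. The median of the tapetum and pollen wall list lies at 5.14. That of the PYK10 and ER-body list, which also holds other beta-glucosidases, lies at -4.29, in a gap between its genes. The wall, conjugation, SWEET and protease groups hold genes on both sides of 0. The plastid-encoded, SWEET, subtilase and GH9 groups were added after the values were seen.

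Several small families held members on both sides, and the naming rule picks the largest rise and the largest fall of each family. Over all tested probe sets 38.1% were higher and 39.7% lower, so members on both sides do not by themselves set these families apart. Of 6 tested defensin and small cysteine-rich peptide genes, PDF2.1 (AT2G02120) read 47.9, 58.2, 58.9 and 79.8 in inflorescences, against 7003, 6365 and 5865 in roots, while LCR66 (AT1G61070) read 1998, 1737, 1547 and 1457 in inflorescences, against 20.9, 13.7 and 25.5 in roots. PDF2.5 was at least 8.47-fold lower and LCR72 at least 12.4-fold higher. The thionin gene THI2.1 (AT1G72260), which encodes another antimicrobial peptide and was chosen after its values were seen, was at least 76.3-fold higher in inflorescences. Among RALF-like peptide genes, which encode small signals of growing cells, RALFL25 and RALFL26 (AT3G25170) were at least 11.7-fold higher and at least 16.4-fold higher, and RALFL27 (AT3G29780) was at least 3.24-fold lower. The subtilases SBT4.13 (AT5G59120) and SBT4.12 (AT5G59090), serine proteases of close number, were at least 11.8-fold higher and at least 9.37-fold lower. In the P450 subfamily CYP71B, CYP71B22 was at least 6.29-fold higher and CYP71B6 lower by a log2 difference of -2.44.

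Of 6 tested genes for auxin response and transport 4 were higher and 2 lower, with a median log2 difference of 1.28. This split was not tested against the 38.1% higher and 39.7% lower over all probe sets. The gibberellin receptor GID1B was lower (-1.64) and its paralogue GID1A higher (0.47), and of the auxin-conjugating GH3 enzymes GH3.17 was lower (-2.90) and GH3.3 higher (2.48). OPCL1, a ligase of jasmonate synthesis, was higher by 1.35, and RR16 (AT2G40670), a cytokinin response regulator, was at least 6.83-fold higher. Of 8 tested genes for late embryogenesis and cold proteins 4 were higher, all at least 4-fold as fitted, and 3 lower. The cold-induced genes COR15B (AT2G42530) and COR15A (AT2G42540) encode stromal proteins that protect membranes. COR15B was at least 26.5-fold higher, COR15A was higher by 4.24 and COR27, with only 1 root array above its 40th percentile, by 3.95 (log2). LTI30 (AT3G50970), a dehydrin, ran the other way, with 883, 638, 1044 and 775 in inflorescences, against 7340.4, 6087 and 6295 in roots, and COR47, a further dehydrin, did not pass (0.14, adjusted p = 0.16).

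Genes of the cell division list differed by small amounts. Of 8 tested cell division genes 3 were higher and 1 lower, and none by 4-fold. The mitotic kinases AUR1 and AUR2 were higher by 0.40 and 0.44, SIM, an inhibitor of division, was lower by a log2 difference of -0.28 (adjusted p = 0.014, and 0.071 with inflorescence replicates 1 and 2 alone), and BUB3.1 did not pass (0.15). In the list of cyclins and cyclin-dependent kinases 1 of 2 tested genes passed, cdc2cAt, with 296, 232, 256 and 308 in inflorescences, against 4.09, 1.72 and 30.2 in roots, at least 2.27-fold higher. Of 7 tested histone genes 4 were higher, with HTB2 at 1.07, HON4 at 1.31 and HIS1-3 (AT2G18050), a drought-induced linker histone, at 2.24. All 4 tested subunit genes of the vacuolar proton pump were lower by under 2-fold, VHA-A3 by a log2 difference of -0.85.

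Inflorescence replicates were alike in most genes, while the 25S and dap controls set replicates 1 and 2 apart from 3 and 4. The dap control read 285 and 271 on replicates 1 and 2 and 353 and 352 on 3 and 4. Summed intensity of the nuclear antenna and photosystem list split too, at 41972 and 41984 against 37282 and 33689. That of the late pollen list did not, at 18403 and 18945 against 18915 and 19146. The 25S ribosomal RNA control read 345 and 835 on replicates 1 and 2 and 3424 and 6585 on replicates 3 and 4, against 865 to 1270 in roots. Of the 15438 tested probe sets 9 were at least 2-fold higher on replicates 1 and 2 than on 3 and 4, and 78 at least 2-fold lower. Only this split is counted here, and in the plastid genes replicate 1 alone was mostly the lowest (57 of 64, against 4 for replicate 2). With replicates 1 and 2 alone as the inflorescence group 11556 probe sets passed, and with replicates 3 and 4 alone 11827, so the count did not hinge on either pair. Over all tested probe sets the median SD between replicates was 0.131 (log2) in inflorescences and 0.108 in roots.

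The same tissue difference was then read in the gir arrays, which the wild-type comparison does not use and which share its confounding of tissue with age, medium and glucose. Of 16041 probe sets 3308 (20.6%) had a tissue difference that itself differed between Col-7 and gir (limma's interaction test, adjusted p under 0.05), 1602 of them more positive in Col-7 (9.99%) and 1706 more negative (10.6%). Of the 846 genes at least 4-fold higher in Col-7 inflorescences 837 were also higher in gir inflorescences than in gir roots, 605 of them at least 4-fold, where 9.73% of all 15300 probe sets tested in gir were called and at least 4-fold higher. The interaction passed for 372 of the 846, 310 with the larger difference in Col-7 and 62 with the larger one in gir. These genes were chosen for their difference in Col-7, which by itself favours larger differences there, and over all probe sets the split was 1602 to 1706. Of the 606 genes at least 4-fold lower 605 were lower in gir too, 515 of them at least 4-fold. Of all 15300 probe sets tested in gir, 8.2% were called and at least 4-fold lower. Among the 606 genes the interaction passed for 114 with the larger difference in Col-7 and 63 with the larger one in gir.

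Late pollen genes were among those whose tissue difference differed between the genotypes. Of 19 tested late pollen genes 16 passed the interaction, beside 20.6% of all probe sets tested for it. Of those 16 genes, 15 had the more positive difference in Col-7. The list's median log2 difference was 2.18 in Col-7 and 0.67 in gir. The gene lists were chosen with earlier results of these data known, so their counts give no independent support. For the pollen and tapetum genes named next, the roots of both genotypes were at the floor, so the sizes are as fitted. PLIM2a had a log2 difference of 5.98 in Col-7 and 2.61 in gir (difference 3.37 ± 0.24, SE, adjusted p = 3.8e-07). In the tapetum and pollen wall list AT59 (5.33 in Col-7, 1.97 in gir, adjusted p = 5.9e-07) and AtVEX1 (6.38 and 3.44, adjusted p = 4.2e-07) differed likewise, whereas for ATA27 (7.84 and 7.29, adjusted p = 0.086) and SWEET8 (6.16 and 5.93, adjusted p = 0.44) the interaction did not pass. For the ER-body list it passed for 0 of 10 genes in limma (1 at an unadjusted p under 0.05), with PYK10 at -8.26 in Col-7 and -7.94 in gir (adjusted p = 0.098). For the plastid-encoded genes it passed for 1 of 64.

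The 8 genes of smallest interaction p were AT1G71680, SP1L4, AT1G13970, AT5G64790, AT5G47000, AT4G35670, AT1G26450 and AT3G05150. SP1L4 (AT5G15600), a relative of the microtubule protein SPIRAL1, turned direction. In Col-7 it read 969.6, 1036, 1069 and 1216 in inflorescences, against 325, 272 and 341 in roots, a log2 difference of 1.70, and in gir it averaged 115 in gir inflorescences and 469 in gir roots, a log2 difference of -1.82. AT1G71680 read 1524, 1658, 1799.5 and 1914 in Col-7 inflorescences and averaged 142 in gir inflorescences, with root means of 4.93 and 2.97. The linker histone gene HIS1-3, outside these 8, also turned direction, with 2.24 in Col-7 and -1.25 in gir (adjusted p = 7.4e-06). AT1G26450 was lower in inflorescences of Col-7 (-1.80) and higher in those of gir (0.40).

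**Figure D5:**
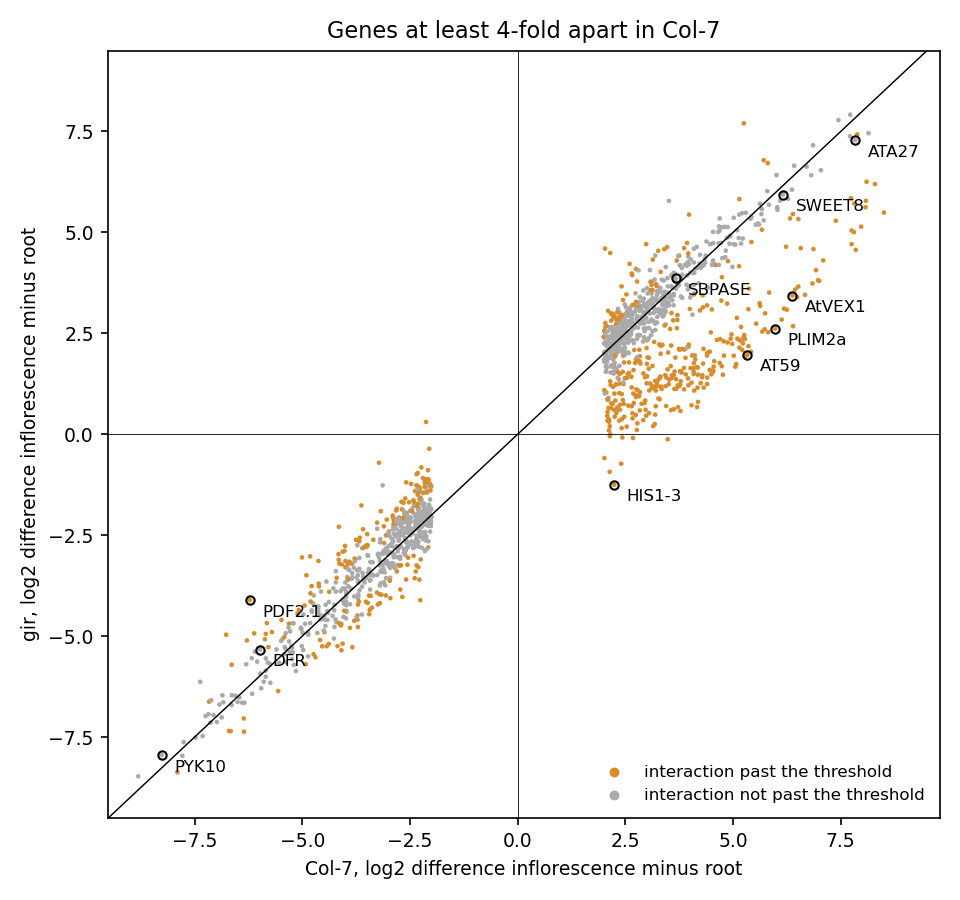
Log2 tissue difference, inflorescence minus root, in gir (vertical axis) against Col-7 (horizontal axis) for the 846 and 606 genes at least 4-fold higher or lower in Col-7, with orange where limma's interaction passed the threshold. Root-side genes such as PYK10 lie near the line of equal values, and a band of inflorescence-side genes with PLIM2a and AT59 lies below it.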

How the data were processed

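Biotin-labelled RNA of the 14 samples had been hybridised to Affymetrix arrays, and the authors deposited linear intensities, for which the submitters' processing notes name MAS5. The MAS5 version is not given in the sources used here, and no detection calls were used, so arrays below their own 40th percentile were treated as dim. The number of arrays limits the precision. Samples were grouped by title. The 64 control probe sets were left out of the tests. Values were taken as log2(intensity + 26), which understates changes of dim probe sets, and were kept as scaled by the authors. Col-7 inflorescence minus Col-7 root was fitted on those 7 arrays with limma 3.58.1 (lmFit, eBayes) in R 4.3.3, two-sided, with Benjamini-Hochberg adjustment over all tested probe sets at 0.05. The interaction, (inflorescence minus root in Col-7) minus (inflorescence minus root in gir), was fitted on all 14 arrays for probe sets at or above the 40th percentile on at least 3. Both fits were tested on simulated data. Python 3.11.15 with matplotlib 3.10.9 made the figures.

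Gene names come from the platform annotation, updated through the table of TAIR10.1. The annotation lists 14016 probe sets, of which 503 hold several genes and were not reported by gene. Of 13513 with a single gene 13436 were found in that table, for 13286 genes, and 8730 unlisted probe sets are unnamed here. The gene lists and members were chosen with earlier results of these data known. Named genes were the 15 largest rises and 15 largest falls past the threshold with no overlap between groups, up to 6 members past it and 2 not past it from each list, the largest rise and fall of each symbol family, and the 8 smallest interaction p-values. Another 50 genes were named after their values were seen, namely AMY1, atpA, BGLU45, BGLU46, COR15A, COR27, COR47, CSLC6, cwINV6, EMS1, EXLA1, EXLA2, EXPA4, EXPA8, EXPB5, GH9B11, GH9B8, GSTU18, GSTU22, HON4, HTB2, ICL, LCR72, MGH3, NAI1, ndhJ, PDF2.5, Prx37, PRX52, PRXR1, PSAE-1, PSAN, psbB, psbD, PTL, RALFL25, rbcL, SEU, SWEET10, SWEET13, SWEET14, SWEET17, SWEET2, THI2.1, TMT2, TMT3, UGT72E1, UGT72E3, XTH19 and XTH20. One probe set stood for a gene, that of highest mean. Of 71 genes with several tested probe sets, AT2G20050 had 2 probe sets with calls in opposite directions. The genes ordered by size where all 7 arrays gave signal were likewise chosen after their values were seen. The result of 1 gene is not reported here.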

Additional observations from a re-analysis of the deposited data

Results flagged for a closer look

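Among the 210 named genes, each with 4 inflorescence values, 13 had 1 inflorescence array whose gap to the others was above Dixon's 95% critical value, and chance gives about 1 in 20. Replicate 1 stood apart in the intensity of BGLU46 (109.8), AGL21 (5.90), SWEET8 (2453), ndhJ (1049), atpF (3618), psbD (119) and AT2G45180 (3844). Replicate 2 stood apart in the intensity of AT2G21045 (29.4), GSTU25 (65.4), UGT74B1 (727) and ALC (581). Replicate 3 stood apart in the intensity of XTH18 (92.3) and THI2.1 (7761). In ndhJ, atpF and psbD, all encoded in the plastid, replicate 1 was the low array. The groups of 3 root arrays were not examined in this way.

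The tissue difference itself differed between Col-7 and gir (limma's interaction test, adjusted p under 0.05) in 83 of the 210 named genes. Over all probe sets tested for the interaction the share was 20.6% (3308 of 16041). Some of the named genes were picked for the smallest interaction p, others for large differences in Col-7 or after their values were seen. Their count therefore cannot be set against that share as an excess. The values that follow are the log2 difference inflorescence minus root in Col-7 minus that in gir. Among the largest rises in inflorescences, the difference was more positive in Col-7 for AT3G07820 (3.01), AT5G38760 (2.1), AT3G28790 (1.85), AT3G28980 (2.30), AT3G28830 (2.45), AT5G61720 (2.83), AT5G33370 (0.46) and AT5G07430 (3.28). It was so too for AT3G28750 (2.1), AT2G47050 (2.80), AT5G19580 (2.71), AT3G01240 (3.04), AT5G45880 (1.89) and AT3G20820 (0.98). Among late pollen and tapetum genes, the difference was more positive in Col-7 for EXPB5 (2.38), AtVEX1 (2.94), AT59 (3.36), SWEET13 (2.13), SWEET14 (2.19), PLIM2a (3.37), ACT12 (1.96) and CHX19 (2.55). It was so too for ANX2 (3.05), AGL104 (2.31), MGH3 (2.1), TUB9 (0.36) and SP1L4 (3.52). Among late pollen and tapetum genes, the difference was more negative in Col-7 for EXPA4 (-0.93) and EMS1 (-0.44). Among genes of roots, walls and lignin, the difference was more positive in Col-7 for EXPA8 (2.51), EXPA24 (2.09), EXLA1 (0.79), XTH19 (1.43), GH9C1 (0.81), GH9A4 (2.29), GH9B11 (2.87) and UPB1 (2.31). Among genes of roots, walls and lignin, the difference was more negative in Col-7 for AT2G41480 (-1.02), AT5G66390 (-1.04), PRX52 (-1.86) and PRXR1 (-0.63). Among genes of conjugation and secondary metabolism, the difference was more positive in Col-7 for AT5G54010 (0.73) and GSTU25 (0.68). Among genes of conjugation and secondary metabolism, the difference was more negative in Col-7 for UGT73B4 (-0.39) and CYP71B22 (-1.46). Among sugar, photosynthesis and plastid genes, the difference was more positive in Col-7 for TMT3 (1.44), AMY1 (0.90) and ICL (1.85). Among sugar, photosynthesis and plastid genes, the difference was more negative in Col-7 for PSAE-1 (-0.45), SWEET10 (-1.08) and SWEET17 (-0.75). Among regulators of flowers and organs, the difference was more positive in Col-7 for BPEp (1.70), NGA1 (0.62) and NGA2 (0.93). Among regulators of flowers and organs, the difference was more negative in Col-7 for YAB3 (-0.44), AN (-0.41) and PHV (-0.50). Among genes with the smallest interaction p, the difference was more positive in Col-7 for AT1G71680 (3.29), AT1G13970 (3.07), AT5G64790 (3.01), AT5G47000 (3.61), AT4G35670 (3.49) and AT3G05150 (3.13). Among genes with the smallest interaction p, the difference was more negative in Col-7 for AT1G26450 (-2.20). Among other genes, the difference was more positive in Col-7 for AT5G26260 (0.47), PDF2.5 (0.83), LCR72 (2.83), LTI30 (1.1), COR47 (0.80), RALFL25 (2.6), RALFL26 (2.80) and RALFL27 (0.63). It was so too for SBT4.13 (2.26), HIS1-3 (3.49), SIM (0.88), MT1C (0.72) and cdc2cAt (1.42). Among other genes, the difference was more negative in Col-7 for AT3G58550 (-0.54), PDF2.1 (-2.11), BUB3.1 (-0.76), AT3G53980 (-0.79), AT3G18280 (-0.92) and AT3G21770 (-0.87).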

How the results depend on the processing

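The count of probe sets past the threshold was 12014, and 12004 with quantile normalization, 12210 with arrays centred on their medians, 11901 and 12142 with 1 or 100 added in place of 26, 14493 with no filter on dim probe sets, 8885 with a filter at the 60th percentile, 12085 with a trended, robust prior and 12071 with all 14 arrays in the fit. Leaving out 1 array at a time gave 11444 to 11861. The 4-fold counts hung on the added constant, 1071 higher and 756 lower with 100 against 1654 and 1233 with 26, because a larger constant shrinks the differences of dim genes by construction. Same-numbered inflorescence and root arrays were not paired, since their deviations from the group means correlated at -0.014, 0.021 and -0.0048 for numbers 1 to 3. With the replicate number as a block the count was 11572 (5691 higher, 5881 lower), and the interaction, 3308 without it, was 3600. The calls of LHW, ARL and SIM were lost with the block (adjusted p = 0.090, 0.061 and 0.055). The interaction gave 3311 with quantile normalization, 3283 with no filter and 3697 with 100 added. Of the 210 named genes 195 passed, and over 18 alternatives each none turned direction past the threshold. LHW, PTL, SEU, ARL, SIM and psaA lost their call in at least 1 alternative, and the cause was not tested. BGLU42, EXLA1, EXLA2, CHIL, UPB1, WLIM1, HEMA2, psbB, psbD, atpA, COR47 and BUB3.1 passed only in an alternative. Signal over background limits the sizes, since 624 of 846 risen and 479 of 606 fallen genes at 4-fold or more had the lower tissue wholly below the 40th percentile.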

Other observations

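Some genes with large differences lie next to each other in the genome, by the order of protein-coding genes in the TAIR10.1 gene table. Runs of at least 3 neighbours that were all called and at least 4-fold higher in inflorescences numbered 5. AT1G23570, AT1G23580, AT1G23590 and AT1G23600 on chromosome 1 had fitted log2 differences of 3.2 to 5.5. AT3G25160, RALFL25 and RALFL26 on chromosome 3 had 2.15 to 5.54, and AMY1, SWEET14 and AT4G25020 on chromosome 4 had 2.14 to 2.75. In the plastid genome ycf3, rps4, ndhJ, ndhK and ndhC had 2.26 to 3.76, and ndhD, psaC and ndhE had 2.77 to 5.13.

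Runs of neighbours at least 4-fold lower in inflorescences numbered 3. AT1G51830, AT1G51840, AT1G51850 and AT1G51860 had fitted log2 differences of -5.41 to -3.93, AT1G52050, AT1G52060 and AT1G52070 had -5.70 to -3.68, and AT2G43590, AT2G43600 and AT2G43610 had -7.37 to -2.25. Neighbours of like sequence can share probes, and the part of this in the runs was not tested. The share of runs expected by chance was not tested either.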
